A study of Mus musculus with 31 samples.

Results

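Chromatin accessibility at genes of the tumour necrosis factor (TNF) superfamily, of the TRAF adaptors and of the BIRC proteins was followed in mouse regulatory T cells (Tregs) after injection of interleukin-2. The peaks were those whose deposited annotation names a gene with a symbol starting in Tnfrsf or Tnfsf, a Traf or Birc symbol with a digit, or Tnf, Lta, Ltb, Ltbr, Fas or Fasl. The rule found 288 of 104979 peaks. Because 103 of the 288 overlapped another of them, they covered 193 separate regions, assigned to 49 genes. None was assigned to Ltbr, and no peak carried the names of 2 member genes (0 of 288).

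The study measured Tregs by ATAC-seq, in which a transposase cuts open DNA, and asked how chromatin changes while IL-2 receptor signalling lasts for different times. RFP-FoxP3+ BL6 (C57BL/6) mice, whose reporter marks cells expressing Foxp3, received 20 µg of mIL-2/CD25, a fusion of mouse IL-2 with its receptor chain CD25 (labelled FP), 5 µg of mIL-2 (labelled IL2) or 100 µL of PBS, and Tregs were sorted from the spleen. There were 3 FP, 3 IL2 and 3 PBS libraries at 0.75 h and again at 16 h, 3 FP and 3 PBS libraries at 72 h, and 4 FP and 3 PBS libraries at 168 h, which made 31. The labels do not say that libraries came from separate animals, so p-values measure the spread between these samples, which may be technical. Each time has its own PBS group, and the dates in the labels differ between times, so time and date cannot be told apart. The FP and IL2 comparisons of 1 time share their PBS libraries, and the doses of FP and IL2 differ.

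Library totals ran from 7385040 to 59647438 counts, lowest in PBS replicate 1 at 168 h. That library and FP replicate 2 at 168 h had the lowest mean correlations with the other libraries (0.737 and 0.772). The number of calls at 168 h and the values of Tnfrsf21, Traf1, Tnfrsf18 and a Tnfrsf9 promoter peak are also given without this pair. All other 168 h values, medians and counts include the pair, and whether they differ without it is not given. Of the T cell and Treg markers, Cd3e, Cd4, Foxp3, Il2ra, Ctla4 and Ikzf2 all had peaks, 87 together. Markers of other cells also had peaks, namely Cd8a (1) and Cd8b1 (16) of CD8 T cells, Cd79a (1) and Pax5 (3) of B cells, Klrb1c (13) and Klrk1 (3) of NK cells, and Lyz2, Itgam and Cd14 (1 each) of myeloid cells. In the table used here, no peak was annotated to Ms4a1 of B cells, Ncr1 of NK cells, or Csf1r and Adgre1 of myeloid cells. After PBS the lead peaks of the T cell and Treg markers had from 7.71 (Cd3e) to 33.6 CPM per kb (Ctla4), with 16.7 for Foxp3. Among the markers of other cells Klrb1c had 31.1 CPM per kb, Cd8b1 9.67 and Klrk1 8.43. The lead peaks of Cd8a and of the B cell and myeloid markers ran from 2.72 (Itgam) to 6.27 CPM per kb (Cd79a). A single peak held 24.0% of all counts, and values are given as CPM, the usual counts-per-million scale, after trimmed mean of M-values scaling within each time.

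TNF family ligands are membrane-bound or shed trimers that bind receptors of the TNFRSF family on neighbouring cells. The receptors signal through TRAF adaptors, several of which are ubiquitin ligases, and through cellular inhibitor of apoptosis proteins encoded by Birc2 and Birc3. The outcome is activation of NF-kB and MAP kinases or, through receptors with a death domain such as Fas, caspase activation. Tregs are known for high levels of TNFR2 (Tnfrsf1b), GITR (Tnfrsf18) and OX40 (Tnfrsf4), and ligands of these receptors change Treg expansion and function.

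Of the 49 genes, 14 were ligand genes with 93 peaks (among them the noncoding Tnfsf13os), 20 were receptor genes with 135 peaks, 7 were TRAF adaptors with 30 peaks, 3 encode TRAF3-interacting proteins with 19 peaks, and 5 were BIRC genes with 11 peaks. Promoters made up 45.1% of the member peaks against 28.0% of all peaks. Repeated intervals weigh on the member share, and with 1 peak for each region 61 of 193 were promoters. Introns held 83 member peaks, 45 were intergenic, 18 exonic and 12 at 3′ ends. Tnfrsf9, which encodes the costimulatory receptor CD137, had the most peaks, 38, but these formed only 6 regions, since near-identical intervals were listed many times. Tnfsf11, which encodes RANK ligand, followed with 28 peaks in 6 regions, Tnfsf8 (CD30 ligand) with 21 in 12, and Tnfrsf8 (its receptor CD30) with 19 in 19.

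Many members lay side by side. With member peaks no more than 200 kb apart, 18 of the 49 genes fell into 8 loci. Ltb, Tnf and Lta lay within 16.8 kb of chromosome 17 (6 peaks). Tnfrsf1b and Tnfrsf8 shared 132 kb of chromosome 4 (29 peaks), Tnfsf15 and Tnfsf8 125 kb of the same chromosome (23 peaks), and Tnfrsf4 and Tnfrsf18 15.3 kb (3 peaks). Birc2 and Birc3 shared 68.5 kb of chromosome 9 (8 peaks).

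These sequences are parts of the 5 member peaks that rose 0.75 h after IL2 and are shown for their matches to TTCNNNGAA, the palindrome bound by STAT5, the transcription factor that the IL-2 receptor activates. Matches are in capitals, and each line reads the plus strand of GRCm38 from RefSeq. The Lta and Tnfrsf8 peaks and the Birc3 peak each held 2 matches and the Tnfsf8 peak 1, and for Lta the match farther from the gene is shown, since the window around the other reaches into the transcript. The Traf6 peak held none, so its central 120 bases are given for comparison.
Lta promoter, chr17:35205455-35205543: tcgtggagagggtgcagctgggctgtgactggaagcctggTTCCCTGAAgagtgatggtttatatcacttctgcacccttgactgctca
Tnfsf8 intron, chr4:63849242-63849330: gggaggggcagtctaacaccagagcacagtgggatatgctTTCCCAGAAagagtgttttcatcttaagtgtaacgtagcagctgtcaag
Tnfrsf8 upstream region, first match, chr4:145341936-145342024: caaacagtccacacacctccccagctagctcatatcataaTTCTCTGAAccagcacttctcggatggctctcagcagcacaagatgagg
Tnfrsf8 upstream region, second match, chr4:145342309-145342397: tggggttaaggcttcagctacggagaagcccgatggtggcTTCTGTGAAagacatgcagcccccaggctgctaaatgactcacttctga
Birc3 intron, both matches, chr9:7863089-7863199: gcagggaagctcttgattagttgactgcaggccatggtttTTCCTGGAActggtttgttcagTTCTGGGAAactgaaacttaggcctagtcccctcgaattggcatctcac
Traf6 intron, no match, chr2:101679407-101679526: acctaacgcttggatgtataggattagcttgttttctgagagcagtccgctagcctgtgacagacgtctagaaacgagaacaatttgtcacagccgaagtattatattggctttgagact

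The same search over both strands of every peak found TTCNNNGAA in 72 of 288 member peaks (25.0%) and in 13.3% of all peaks. Member peaks were wider, with a median of 529 bp against 366 bp, and peaks within 10% of the members' widths held the motif in 16.0% of cases. The kappa B-type motif GGANTTTCC was present in 3.82% of member peaks, 2.00% of all peaks and 2.42% of peaks of like width. The AP-1-type motif TGANTCA was present in 22.9%, 13.2% and 15.8% of the same sets. Overlapping copies of a region enter these shares more than once, and a match describes letters, not a bound factor.

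After PBS, accessibility differed widely between the genes, here compared as CPM per kb of the lead peak, the member peak of each gene with the highest mean log2 CPM over all libraries. The highest levels were at the promoters of Birc6 (73.1 CPM per kb, mean of 12 PBS libraries), which encodes a giant inhibitor of apoptosis, and Birc3 (59.6 CPM per kb), above 99.5% and 99.2% of all peaks. An intergenic peak 7328 bp from Tnfrsf1b (45.8 CPM per kb) led the receptors, followed by intergenic peaks of Tnfrsf8 (32.4 CPM per kb) and of Tnfrsf14 (28.7 CPM per kb), which encodes HVEM. Among the ligands Tnfsf10, which encodes TRAIL, was highest at 36.2 CPM per kb, ahead of a peak 20825 bp from Fasl, the Fas ligand gene, at 27.1 CPM per kb. Traf7 (41.8 CPM per kb), Traf2 (34.6), Traf5 (30.6) and Traf6 (24.9) stood well above Traf4 (7.08), Traf1 (6.75) and Traf3 (5.69) on that scale.

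The promoters of GITR and OX40 had levels nearer the middle of all peaks. Tnfrsf18 had 9.95 CPM per kb, above 66.9% of all peaks, and Tnfrsf4 had 6.89 CPM per kb, just under the median of all peaks of 7.12 CPM per kb. Tnfrsf13c, the BAFF receptor gene of B cells, had the lowest mean at its lead peak, 2.61 CPM per kb, beside 2.71 for Tnfrsf11b. Their medians over the PBS libraries were 2.3 and 0.968 CPM per kb, so the order of these genes is not resolved. The values of Lta (7.69), Tnfsf9 (7.56), Ltb (7.41), Tnfrsf4 (6.89), Traf1 (6.75) and Tnf (6.65) lay within each other's ranges over the PBS libraries, so their order is not resolved. In all, 37 of the 49 lead peaks lay above the median of all peaks and 36 were promoters.

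**Figure D1:**
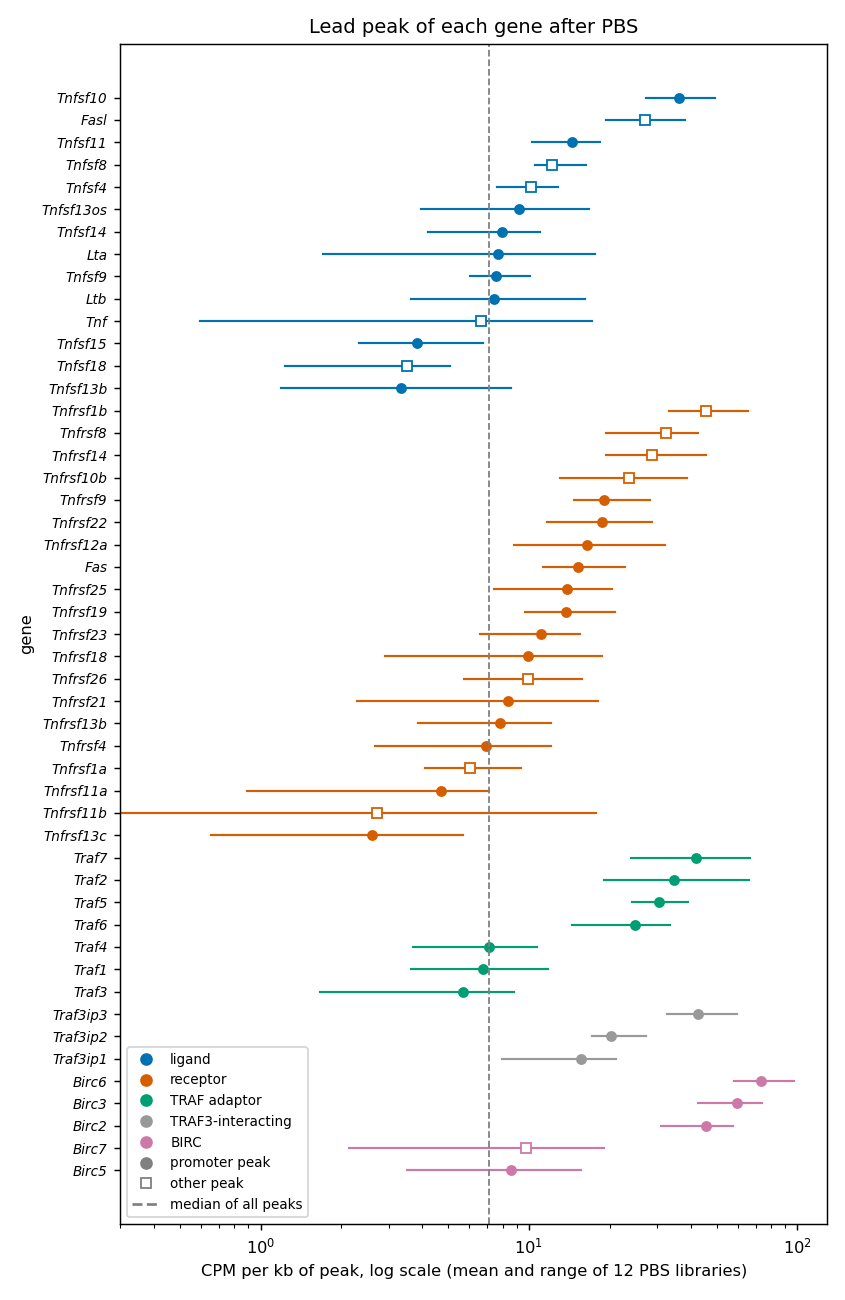
Mean accessibility of the lead peak of each of the 49 genes over 12 PBS libraries, as CPM per kb of peak on a log axis, with the range over libraries as a line and the median of all peaks (7.12) dashed. Birc6, Birc3 and Tnfrsf1b lie highest, and the ranges of many genes near the median overlap.

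At 0.75 h after IL2, 5 member peaks rose, 1 each at Lta, Tnfsf8, Tnfrsf8, Traf6 and Birc3, with log2 fold changes of 1.04 to 1.99. They were 5 of 286 member peaks tested (1.75%), against 499 of 100468 peaks in all (0.497%), of which 490 rose and 9 fell (edgeR's quasi-likelihood test, adjusted p under 0.05 over all peaks). No member peak fell (0 of 286). DESeq2 called the same number, 5, against 1.11% of all peaks. The 5 peaks lay in 5 separate regions, and 4 of them were outside promoters.

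Lta encodes lymphotoxin alpha, a secreted ligand needed to form lymphoid organs. Its promoter peak (chr17:35204946-35205625, on the start site, ENSMUSG00000024402.5) had 19.4, 13.1 and 9.40 CPM in IL2 libraries, against 4.98, 4.38 and 1.16 CPM in PBS libraries. All IL2 libraries were above all PBS libraries, and the log2 fold change was 1.99 ± 0.41 (SE, adjusted p = 0.0312 by edgeR). Its lowest PBS value came from PBS replicate 3, which held 25 reads in the peak.

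Tnfsf8 encodes the ligand of CD30. An intronic peak 11736 bp from its start site (chr4:63849120-63849611) had 11.1, 8.33 and 9.74 CPM in IL2 libraries, against 3.41, 3.47 and 3.72 CPM in PBS libraries. The PBS values were nearly equal and every IL2 value was above them, with a rise of 1.46 ± 0.28 on the log2 scale (SE, adjusted p = 0.0209, edgeR). The lead peak of the gene, in another intron, had a log2 fold change of 0.78 that did not pass.

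Tnfrsf8 encodes CD30, a costimulatory receptor of activated T cells. The peak 26434 bp upstream of its start site (chr4:145341598-145342660, intergenic) had 35.3, 36.0 and 35.4 CPM in IL2 libraries, against 14.4, 18.1 and 19.3 CPM in PBS libraries. It was the most accessible of the 5, and its log2 fold change was the smallest, 1.04 ± 0.22 (SE, adjusted p = 0.0404, edgeR). The other 18 peaks of this gene had log2 fold changes between -0.63 and 1.07, and none passed.

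Traf6 encodes an adaptor and ubiquitin ligase that serves CD40, RANK and the interleukin-1 and Toll-like receptors. A peak in its intron, 754 bp from the start site (chr2:101679194-101679740), had 16.5, 13.4 and 19.6 CPM in IL2 libraries, against 4.67, 6.02 and 4.47 CPM in PBS libraries. The adjusted p was the lowest of the 5, with a rise of 1.71 ± 0.26 on the log2 scale (SE, adjusted p = 0.00408, edgeR). The promoter peak beside it, with a log2 fold change of -0.37, did not pass.

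Birc3 encodes cIAP2, which binds TRAF2 and holds back caspase activation. The intronic peak that rose (chr9:7862501-7863274) lay 2175 bp from an annotated start site of the gene and had 15.4, 18.7 and 16.2 CPM in IL2 libraries, against 5.67, 5.97 and 7.86 CPM in PBS libraries. The groups did not overlap, and the fold change on the log2 scale was 1.36 ± 0.26 (SE, adjusted p = 0.0203, edgeR). The very open Birc3 promoter had a log2 fold change of -0.08.

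How firmly the 5 calls stand differs. Leaving out any 1 of the 6 IL2 and PBS libraries kept the Traf6 call (highest adjusted p = 0.0375), and it also held with the library total as a covariate. The other 4 calls mostly did not survive this, with highest adjusted p between 0.112 for Tnfsf8 and 0.272 for Tnfrsf8 by edgeR, while their log2 fold changes stayed between 0.93 and 2.33 over the 12 alternatives. With 1 library left out, 0 of 6 fits kept Lta, Tnfrsf8 or Birc3 and 1 of 6 kept Tnfsf8. Reads in these peaks ran from 25 to 933 in 1 peak and library among the IL2 and PBS libraries of 0.75 h.

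**Figure D2:**
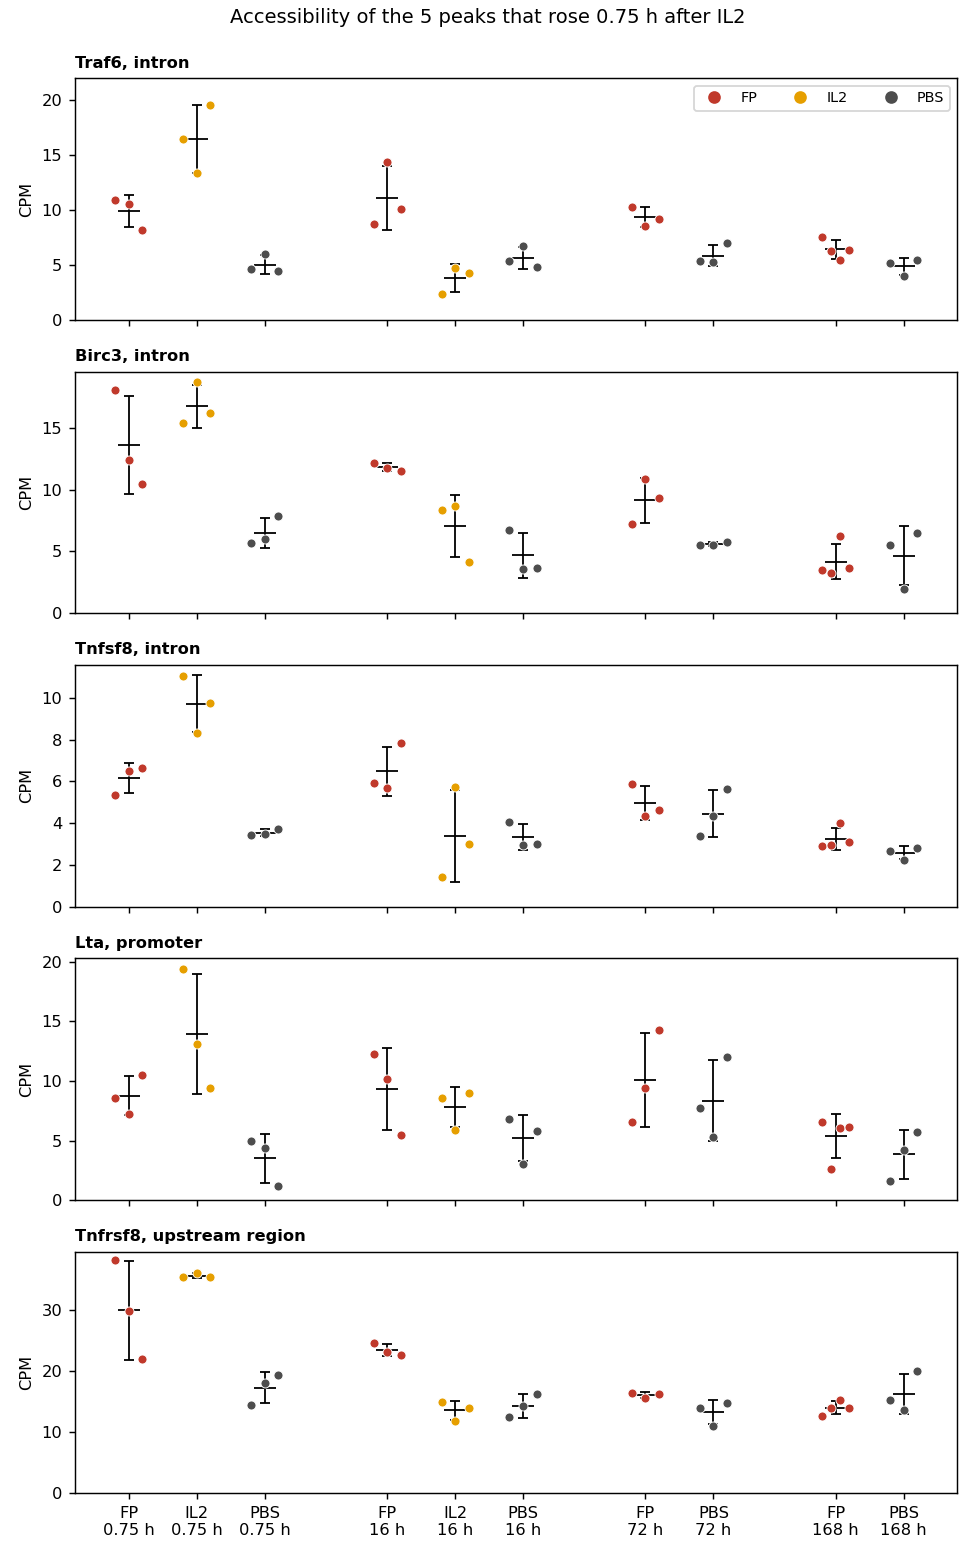
CPM of the 5 peaks that rose 0.75 h after IL2, by library (points), with mean and SD (bars), for FP, IL2 and PBS at each time. IL2 values are high at 0.75 h (Traf6 13.4 to 19.6) and lower at 16 h (Traf6 2.36 to 4.78), while FP values of Traf6 stay above PBS through 72 h.

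Peaks of other genes in the loci of the called peaks did not pass in the main test. In the Ltb, Tnf and Lta locus, the only Tnf peak, at the 3′ end of the gene encoding TNF itself, had 4.90, 3.17 and 2.24 CPM in IL2 libraries against 1.07, 1.78 and 0.279 CPM in PBS libraries. The groups were apart, but its log2 fold change of 1.72 ± 0.54 did not pass (adjusted p = 0.329, edgeR). That value was near the 1.99 ± 0.41 of the Lta promoter. The Ltb promoter, for lymphotoxin beta, had a log2 fold change of 0.04. Tnfrsf1b, neighbour of Tnfrsf8, had 0.68 at its lead peak. Outside these loci, on chromosome 11, Tnfrsf13b, which encodes TACI, had 1.06 at its promoter. Neither of these 2 peaks passed without a replicate term.

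By role at 0.75 h after IL2, 2 of 93 tested ligand peaks, 1 of 134 receptor peaks, 1 of 29 TRAF adaptor peaks, 0 of 19 peaks of TRAF3-interacting genes and 1 of 11 BIRC peaks rose, against 0.497% of all peaks called. With 1 peak for each region, the median log2 fold change was 0.05 over 191 member regions and -0.02 over all peaks. For death-domain receptors the median was 0.05 over 15 regions (0 rose), for T cell costimulatory receptors 0.03 over 44 regions (1 rose) and for B cell survival receptors 0.12 over 4 regions (0 rose). Groups were apart in 30 of 286 member peaks (10.5%), 21 of them higher after IL2, against 11.4% of all peaks.

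Member peaks with a TTCNNNGAA match had a median log2 fold change of 0.26 (72 peaks) and those without it 0.03 (214 peaks) at 0.75 h after IL2. Over all peaks the medians were 0.14 with and -0.05 without a match. The like difference was also present 16 h after FP, at 0.39 against -0.05 in members and 0.12 against -0.04 in all peaks. In members it was 0.15 against 0.01 at 0.75 h after FP, 0.26 against 0.08 at 16 h after IL2, 0.17 against 0.14 at 72 h and 0.21 against 0.18 at 168 h. In the same order, all peaks had 0.104 against -0.001, 0.032 against -0.002, 0.029 against -0.039 and 0.01 against -0.011. Members with and without the AP-1-type motif also differed at 16 h, with medians of 0.27 and -0.03 after FP and 0.25 and 0.10 after IL2. Over all peaks these medians were 0.031 and -0.026 after FP and 0.058 and -0.006 after IL2. These medians are descriptions, since overlapping peaks share their reads.

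FP at 0.75 h gave no call among the members (0 of 286 by edgeR, 0 by DESeq2), against 0.00199% and 0.174% of all peaks by the 2 tools. The unadjusted p was under 0.05 in 13 member peaks (4.55%), against 3.15% of all peaks. The 5 peaks that rose after IL2 all lay higher after FP too. They were chosen for high IL2 and low PBS values, and FP is set against the same PBS libraries. Part of this likeness is therefore built into the choice. Birc3 had 18.1, 12.4 and 10.4 CPM in FP libraries, against 5.67, 5.97 and 7.86 CPM in PBS libraries, and the log2 fold change was 1.07 ± 0.26 (SE, adjusted p = 0.388, edgeR). Traf6 had 10.9, 10.6 and 8.22 CPM in FP libraries, and its log2 fold change over PBS was 0.97 ± 0.26 (adjusted p = 0.543). In both peaks every FP library was above every PBS library, although neither passed.

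Lta had 8.56, 7.21 and 10.5 CPM in FP libraries (log2 fold change over PBS 1.31), Tnfsf8 5.34, 6.49 and 6.63 CPM (0.80), and Tnfrsf8 38.1, 29.8 and 21.9 CPM (0.79). Set directly against IL2 at 0.75 h, FP gave log2 fold changes of -0.73 ± 0.25 at Traf6, -0.67 ± 0.39 at Lta, -0.66 ± 0.27 at Tnfsf8, -0.29 ± 0.25 at Birc3 and -0.25 ± 0.22 at Tnfrsf8 (SE). None of these differences passed, and no member did in that comparison (0 of 286 by edgeR against 0% of all peaks, and 0 by DESeq2 against 0.00597%). The choice of the 5 peaks for high IL2 values by itself favours FP values below IL2. Without adjustment, 8 member peaks had a p under 0.05, against 3.66% of all peaks. Groups of FP and PBS were apart in 29 of 286 member peaks (10.1%), in 24 regions, against 8.44% of all peaks. Among the members with the lowest values after FP, at a mean log2 CPM of at least 1, were a Tnfrsf8 intergenic peak (log2 fold change -1.33), a Fasl intergenic peak (-0.82), a Traf1 promoter peak (-0.79) and a 3′-end peak of Birc3 (-0.79), none of which passed.

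At 16 h after IL2 no member peak passed (0 of 286 by edgeR, 0 by DESeq2), against 0% and 0.00198% of all peaks. At an unadjusted p under 0.05 the count was 7 member peaks (2.45%), against 3.62% of all peaks. The Traf6 peak stood at 2.36, 4.78 and 4.31 CPM in IL2 libraries, against 5.34, 6.78 and 4.85 CPM in PBS libraries. Every IL2 library was now below every PBS library, with a log2 fold change of -0.56 ± 0.32 that did not pass. The Tnfrsf8 upstream peak had 14.9, 11.8 and 14.0 CPM in IL2 libraries, against 12.4, 14.2 and 16.3 CPM in PBS libraries, and the groups overlapped. Groups were apart in 19 of 286 member peaks (6.64%), against 8.98% of all peaks.

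The change between 0.75 h and 16 h was tested in a single fit of all libraries. For Traf6 the IL2 effect over PBS was lower at 16 h than at 0.75 h by 2.26 ± 0.38 on the log2 scale (SE, adjusted p = 0.0104, edgeR), a log2 difference of -2.26. This was the 1 member peak called among 288 (0.347%), against 0.0411% of all peaks, all 43 of them lower at 16 h. DESeq2 added the Tnfrsf8 upstream peak, 2 calls against 0.246% of all peaks. The differences for Tnfsf8 (-1.44 ± 0.47), Lta (-1.41 ± 0.63) and Birc3 (-0.77 ± 0.47) did not pass. The Traf6 call was lost without IL2 replicate 3 or PBS replicate 3 of 0.75 h, or without IL2 library c1 of 16 h, with an adjusted p of at most 0.0588.

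At 16 h after FP no member peak passed by edgeR (0 of 286), against 0.114% of all peaks, and 2 passed by DESeq2 (0.699%), against 0.439% of all peaks. At an unadjusted p under 0.05 there were 17 (5.94%), against 5.31% of all peaks. The 2 peaks called by DESeq2 were the Birc3 intron and a peak 7395 bp upstream of Tnfsf8 (chr4:63868742-63869652). Birc3 had 12.1, 11.7 and 11.5 CPM in FP libraries, against 6.77, 3.62 and 3.64 CPM in PBS libraries, and edgeR's log2 fold change was 1.32 ± 0.32 (adjusted p = 0.154). The upstream peak of Tnfsf8 had a mean of 8.67 ± 3.27 CPM in FP libraries and 2.89 ± 0.491 CPM in PBS libraries (SD, n = 3 each), and edgeR's log2 fold change was 1.59 ± 0.40 (adjusted p = 0.179, edgeR). In both peaks all FP libraries were above all PBS libraries.

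Traf6 had 8.74, 14.4 and 10.1 CPM in FP libraries at 16 h, against 2.36, 4.78 and 4.31 CPM in IL2 libraries of that time. The groups were far apart, and the log2 fold change of FP over IL2 was 1.53 ± 0.32 (SE, adjusted p = 0.0495, edgeR), the only member call of 286 in this comparison (0.350%), against 0.141% of all peaks. DESeq2 called 3 (0.488% of all peaks), adding the Tnfsf8 upstream peak and the Tnfrsf8 upstream peak. The edgeR call was lost in each of the 6 fits with 1 library left out, the adjusted p reaching 0.392, so it rests on the full set of libraries. The erythroid Hbb-bt peak was also called in this comparison (log2 fold change 2.00 ± 0.34, adjusted p = 0.00914, edgeR), while the erythroid list summed to 57.6 to 77.2 CPM in FP libraries and 36.9 to 71.3 CPM in IL2 libraries, and its part in the result was not tested. Against PBS, Traf6 after FP had a log2 fold change of 0.98 ± 0.32 and did not pass.

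Lead peaks of other receptor genes took either direction at 16 h. That of Tnfrsf14 had 8.74, 13.7 and 14.7 CPM in FP libraries, against 21.9, 17.2 and 21.5 CPM in PBS libraries, all FP values being lower (log2 fold change -0.70 ± 0.23, adjusted p = 0.489, edgeR). After IL2 its log2 fold change was 0.03. The lead peak of Tnfrsf4 had 0.41 after each agent, and that of Tnfrsf9 -0.12 after FP and 0.10 after IL2. The Traf1 promoter, for an adaptor that NF-kB induces, had -0.74 after FP and 0.50 after IL2. None of these passed. FP and PBS groups were apart in 47 of 286 member peaks (16.4%), 38 of them higher after FP, against 12.3% of all peaks. These 47 peaks covered 33 regions, and 10 of them were Tnfrsf9 peaks.

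The most open promoters of the family had small log2 fold changes. The Birc6 promoter had 87.6 ± 10.3 CPM in FP libraries and 74.4 ± 3.74 CPM in PBS libraries at 16 h (SD, n = 3 each), and the Birc2 promoter, for cIAP1, had 67.9 ± 2.53 CPM in FP libraries and 52.9 ± 5.22 CPM in PBS libraries. The groups were apart in both, with log2 fold changes of 0.24 and 0.36 that did not pass. The promoter of Fas, the death receptor gene, had 13.8 ± 1.56 CPM in FP libraries and 10.6 ± 1.51 CPM in PBS libraries (log2 fold change 0.39 ± 0.23, not passing). The Birc5 promoter, for the mitotic protein survivin, lay the other way, with 9.94 ± 1.09 CPM in FP libraries and 13.0 ± 1.32 CPM in PBS libraries (log2 fold change -0.39 ± 0.27, not passing). The groups were apart in each of these promoters too.

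**Figure D3:**
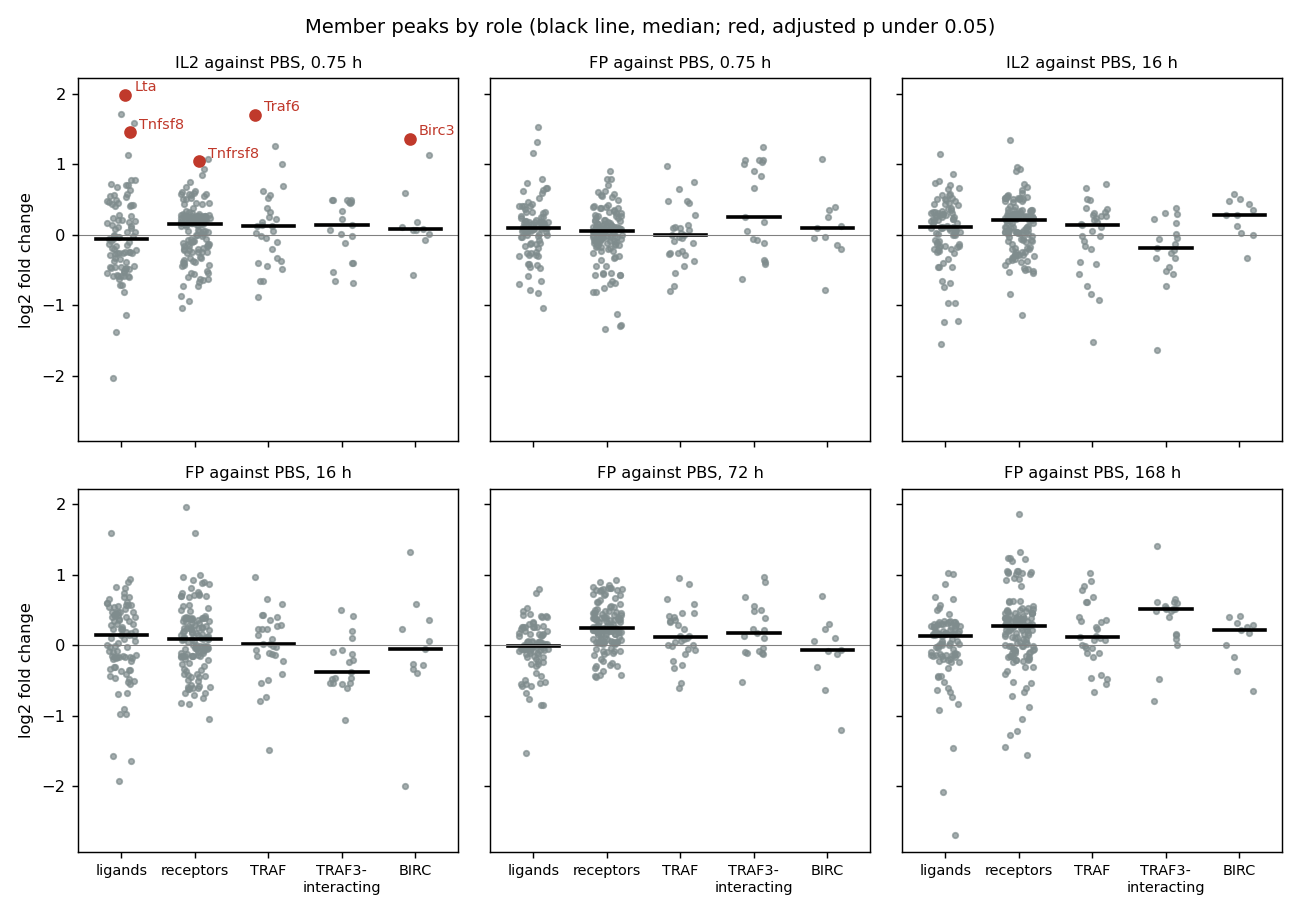
Log2 fold changes of member peaks (points) by role in the 6 comparisons with PBS of the same time, with medians as black lines and peaks with an adjusted p under 0.05 in red. Red points appear in the IL2 comparison at 0.75 h only, and medians stay between -0.37 and 0.51.

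At 72 h after FP no member peak passed (0 of 284 by edgeR and by DESeq2), against 0% and 0.118% of all peaks. Without adjustment, 15 had a p under 0.05 (5.28%), against 5.21% of all peaks. Traf6 had 10.3, 8.52 and 9.22 CPM in FP libraries, against 5.34, 5.27 and 7.00 CPM in PBS libraries, still without overlap (log2 fold change 0.66 ± 0.22, adjusted p = 0.930, edgeR). Birc3 had 7.21, 10.8 and 9.36 CPM in FP libraries, against 5.53, 5.52 and 5.75 CPM in PBS libraries (0.71 ± 0.23). For Tnfsf8 (0.14), Lta (0.26) and Tnfrsf8 (0.27) the log2 fold changes were small. Among member peaks with a mean log2 CPM of at least 1, an exonic peak of Traf3ip3, whose product binds TRAF3, had the highest log2 fold change, with means of 15.2 ± 1.31 CPM in FP libraries and 7.68 ± 2.57 CPM in PBS libraries (SD, n = 3 each) and a log2 fold change of 0.97 ± 0.26 that did not pass. The lowest of these was -0.63, at a peak 24378 bp from Birc3, with 5.41 ± 0.791 CPM in FP libraries and 8.38 ± 1.74 CPM in PBS libraries. The less accessible Tnfsf13b promoter, for the B cell survival factor BAFF, had -1.53 and did not pass. Its PBS libraries at 72 h spread widely around a low level (4.45 ± 3.78 CPM per kb, SD, n = 3). Groups were apart in 39 of 284 member peaks (13.7%), in 29 regions, against 11.7% of all peaks.

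The FP effect did not change detectably between 16 h and 72 h in any member (0 of 288 by edgeR against 0.000957% of all peaks, and 0 by DESeq2 against 0.000957%). At an unadjusted p under 0.05 there were 16 peaks (5.56%) in 7 regions, against 2.97% of all peaks. The differences of effects were -0.28 ± 0.38 for Traf6, -0.58 ± 0.47 for Birc3 and -0.79 ± 0.47 for Tnfsf8 (log2, SE).

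At 168 h after FP no member peak passed (0 of 287 by edgeR and by DESeq2), against 0% and 0.00195% of all peaks, also without the pair of libraries that stood apart. Traf6 had 5.47 to 7.60 CPM in FP libraries (n = 4), against 4.01 to 5.46 CPM in PBS libraries (n = 3). The lowest FP value and the highest PBS value were nearly the same. Birc3 had 3.26 to 6.24 CPM in FP libraries and 2.00 to 6.49 CPM in PBS libraries, and the groups overlapped, as they did for Lta and Tnfrsf8. Tnfsf8 had 2.89 to 4.01 CPM in FP libraries and 2.24 to 2.82 CPM in PBS libraries (log2 fold change 0.33 ± 0.33). At an unadjusted p under 0.05, 24 member peaks passed (8.36%), against 4.54% of all peaks, but these covered only 15 regions, since 10 were overlapping Tnfrsf9 promoter peaks of a single region. In the one with the highest log2 fold change among those with a mean log2 CPM of at least 1, the mean was 8.07 ± 1.86 CPM in FP libraries (n = 4) and 3.77 ± 1.94 CPM in PBS libraries (n = 3, SD), and the log2 fold change was 1.06 ± 0.37 (adjusted p = 0.899, edgeR). Groups were apart in 21 of 287 member peaks (7.32%), in 16 regions, against 6.32% of all peaks.

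At both late times member medians lay above 0. With 1 peak for each region, the median was 0.13 over 189 regions at 72 h and 0.17 over 192 regions at 168 h, against -0.03 and -0.01 over all peaks. The median was also above 0 at 16 h after IL2, at 0.11 over 191 regions against 0.00 over all peaks, with 0.17 for receptors. Promoter peaks of the whole table had medians of 0.05 and 0.13 at 72 h and 168 h, and other peaks -0.09 and -0.10. Member promoters had 0.16 and 0.21, and other members 0.10 and 0.14. Library totals at 168 h were 12316912, 32758009, 34390384 and 37706285 counts in FP libraries and 7385040, 13431581 and 33727995 counts in PBS libraries. These ranges overlapped, but most FP totals were above most PBS totals. With the total as a covariate the median over all member peaks was 0.12 at 72 h and 0.05 at 168 h, in place of 0.15 and 0.18. Receptors had 60 of 80 regions above 0 at 72 h (75.0%, median 0.19) and 57 of 81 at 168 h (70.4%, median 0.23). Over all peaks 46.9% and 49.3% lay above 0 at 72 h and 168 h, and over all promoter peaks 58.4% and 66.0%. Ligands had medians of 0.03 and 0.04. TRAF3-interacting genes had 9 of 11 regions above 0 at each time (medians 0.22 and 0.17), and BIRC genes had 5 of 11 at 72 h (median -0.06) and 8 of 11 at 168 h (median 0.21). None of these regions passed on its own.

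Single receptor genes at the late times included Tnfrsf25, which encodes the death receptor DR3, with log2 fold changes of 0.61 at 72 h and 0.63 at 168 h at its promoter, Tnfrsf18 with 0.49 and 0.84, and Tnfrsf4 with 0.61 and 0.43. The Traf1 promoter had 1.03 at 168 h. Values below 0 at 168 h were found at the Tnfrsf19 intron (-1.55) and at the promoter of Tnfrsf21 (-0.66), which encodes death receptor 6. Without the pair of libraries that stood apart, the value of Tnfrsf21 was -1.05, that of Traf1 1.03, that of Tnfrsf18 0.67 and that of the Tnfrsf9 promoter peak 1.00. None passed (lowest adjusted p over members 0.899 at 168 h, edgeR).

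**Figure D4:**
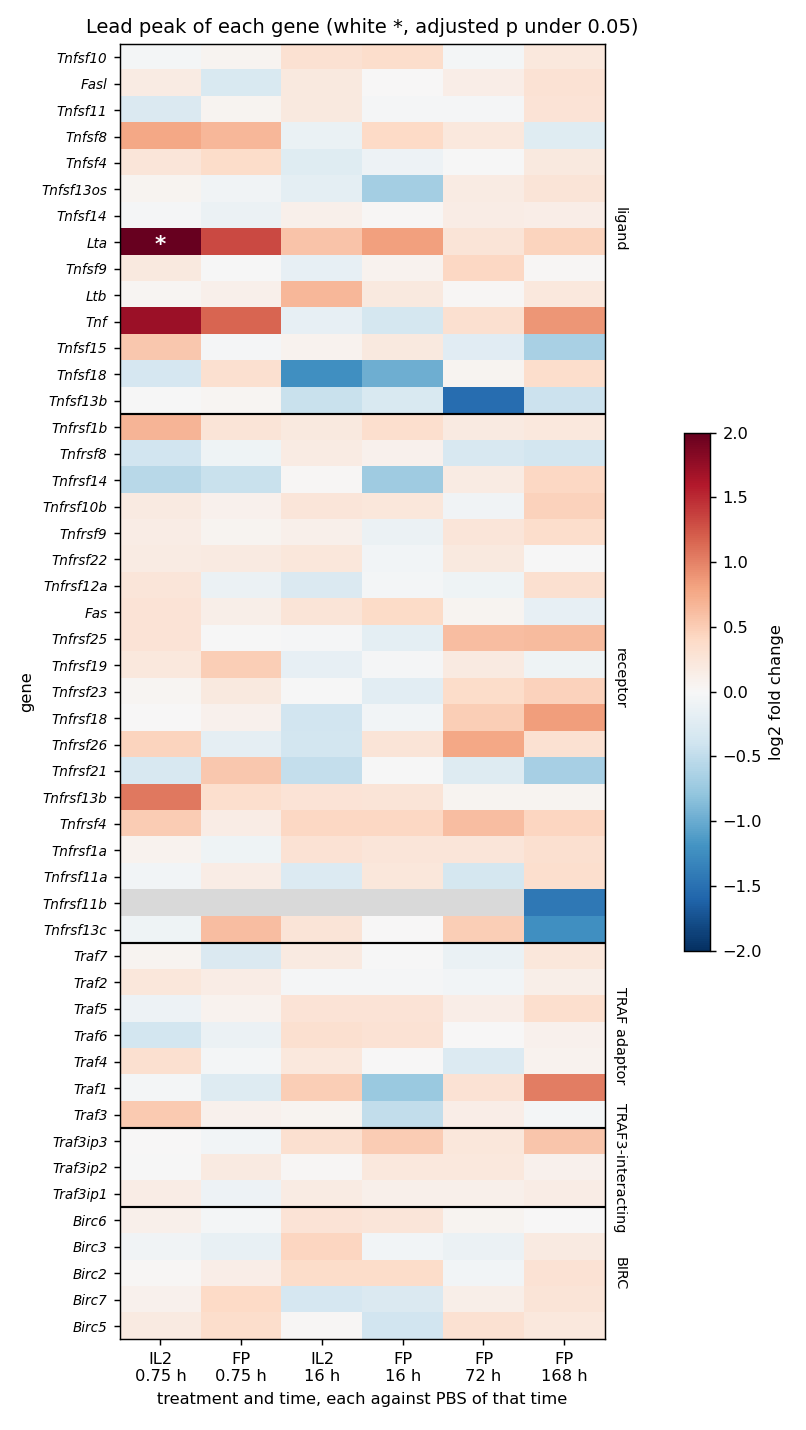
Log2 fold change of the lead peak of each gene (rows, by role and in order of accessibility after PBS) in the 6 comparisons with PBS (columns), with grey for not tested. The Lta promoter 0.75 h after IL2 (1.99) is the only lead peak with an adjusted p under 0.05, and the peaks of Tnfsf8, Tnfrsf8, Traf6 and Birc3 that rose were not the lead peaks of their genes.

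Other genes of the pathway were counted from a list of 45 genes, among them CD27, CD40 and their ligands, the kinases and ubiquitin enzymes below the receptors, NF-kB subunits and inhibitors, and caspases, all of which had a peak (327 peaks). At 0.75 h after IL2, 4 of 324 tested peaks rose and 0 fell, against 0.497% of all peaks called. They were a peak of Nfkb1, which encodes the NF-kB precursor p105, and 3 overlapping peaks at or near the 3′ end of Nfkbiz, the gene of an inducible nuclear IkB protein. The Nfkb1 peak had 21.5, 22.8 and 20.0 CPM in IL2 libraries, against 5.02, 5.68 and 4.79 CPM in PBS libraries (log2 fold change 2.05 ± 0.24, adjusted p = 0.000702, edgeR). Its IL2 effect was lower at 16 h by 2.52 ± 0.44 on the log2 scale (-2.52, adjusted p = 0.0158), and FP exceeded IL2 at 16 h by 1.61 ± 0.30 (adjusted p = 0.0222). Of the 45 genes, no peak passed after FP at any time or after IL2 at 16 h (0 by edgeR in each comparison). The median log2 fold change of the list was 0.08 at 0.75 h after IL2.

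Markers of other cells were followed beside these results. At 0.75 h the CD8 T cell peaks summed to 60.7 to 81.2 CPM in IL2 libraries and 63.5 to 115 CPM in PBS libraries, and the B cell peaks (Cd79a and Pax5) to 5.08 to 7.88 CPM in IL2 libraries and 5.92 to 10.9 CPM in PBS libraries. The NK cell peaks summed to 86.5 to 105 CPM in IL2 libraries and 88.4 to 108 CPM in PBS libraries, and the myeloid peaks to 3.34 to 6.47 CPM in IL2 libraries and 5.30 to 9.02 CPM in PBS libraries. None of those peaks passed. Among the erythroid peaks, 1 of 21 rose, at the 3′ end of Hbb-bt (log2 fold change 2.18 ± 0.29, adjusted p = 0.00179, edgeR), while the list summed to 46.9 to 64.9 CPM in IL2 libraries and 52.9 to 77.5 CPM in PBS libraries. That list summed to 70.8 to 123 CPM in FP libraries of 0.75 h, above all IL2 libraries. The T cell and Treg peaks summed to 416 to 437 CPM in IL2 libraries and 353 to 403 CPM in PBS libraries, without overlap, and 1 of 86 rose, in an Ikzf2 intron. At 16 h the NK cell peaks summed to 112 to 140 CPM in FP libraries and 79.2 to 113 CPM in PBS libraries. The part of other cells in the member results was not tested, and in sorted bulk samples more open cells and more open DNA per cell cannot be told apart.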

How the data were processed

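ATAC-seq reads were aligned to GRCm38/mm10 with BWA and peaks called with MACS2 2.1.2, per the submitters' processing notes. The deposited table holds whole-number read counts of 104979 peaks in 31 libraries, none of them normalized, and its peak annotation. For the read counter, duplicates and the common peak set, the method is not given in the sources used here. Commas in gene names of 9561 peaks shift the columns, so counts were read from the right. Later times rest on titles and column names, since all samples share a treatment protocol text that states 0.75 h. The numbers of the 16 h columns differ from those of the titles, so these columns were matched to a group only and are called c1 to c3.

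Counts were tested with edgeR 4.0.16 (quasi-likelihood test, R 4.3.3, limma 3.58.1), with scaling by the trimmed mean of M-values, a filter at 10 counts a library and 15 in total, all groups of a time in 1 fit, and Benjamini-Hochberg adjustment over all tested peaks at 0.05. Differences between times came from a fit of all libraries. CPM are scaled within each time. The biological coefficient of variation was 38.6% to 48.0%, which limits small differences. DESeq2 1.42.0, other scalings and filters, a library-total covariate, a replicate term and fits without each library were alternatives. The procedure was tested on simulated data. Named peaks were the called ones, in each comparison with PBS the 5 highest and 5 lowest log2 fold changes among peaks with a mean log2 CPM of at least 1, 1 a gene, the lead peaks of a list of genes, and the gene with most peaks. The Tnfsf13b promoter and the lead peaks outside that list were named after their values were seen. Members and lists were chosen with earlier results of these data known.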

Additional observations from a re-analysis of the deposited data

Results flagged for a closer look

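The Traf6 intron peak was called between FP and IL2 and between times, both by edgeR's test of the difference itself. At 16 h its log2 fold change of FP over IL2 was 1.53 (adjusted p = 0.0495, edgeR). With 1 library left out, 0 of 6 fits kept this call, and the doses of FP and IL2 differ. Its IL2 effect over PBS was lower at 16 h than at 0.75 h, with a log2 difference of -2.26. With 1 library left out, 9 of 12 fits kept that call.

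In the FP group at 168 h, the only group of 4 libraries, a single library lay far from the other 3 in the lead peaks of 3 genes. The Birc3 promoter had 47.6 CPM in FP replicate 2, against 63.9 to 66.4 CPM in the others. The Lta promoter had 2.61 CPM in the same library, against 6.08 to 6.54 CPM in the others. The Traf3 promoter had 10.7 CPM in FP replicate 4, against 5.77 to 6.14 CPM in the others. Dixon's test was tried on 39 peaks at a critical value of 0.829, and chance flags about 1 in 20. FP replicate 2 also had a low total and the second-lowest correlation with other libraries, and the part of this in its values was not tested.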

How the results depend on the processing

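Counts of called member peaks are compared with those of edgeR's main test. For IL2 against PBS at 0.75 h, 5 became 1 with the library total as a covariate and 1 to 2 with 1 library left out. For FP against PBS at 16 h, 0 became 2 with DESeq2. For FP against IL2 at 16 h, 1 became 3 with DESeq2, and 0 with library totals as scaling, with the covariate, with those groups alone and with any 1 library left out. For the IL2 effect between times, 1 became 2 with DESeq2 and 0 to 1 with 1 library left out. No result reversed (0), and the cause of these changes was not tested. At 168 h, leaving out PBS replicate 1 and FP replicate 2 together, an alternative chosen after seeing the data, gave 0 as before. Over all peaks, edgeR and DESeq2 called 499 and 1116 at 0.75 h after IL2, 2 and 175 after FP, and 115 and 442 at 16 h after FP. Replicate numbers were not taken as pairing in the main test. Correlations of same-numbered libraries ran from 0.004 to 0.24 at 0.75 h, against -0.23 to 0.06 for differently numbered libraries. At 72 h they ran from -0.19 to 0.58, against -0.67 to 0.58, and at 168 h from -0.23 to 0.42, against -0.60 to 0.44. Whether the numbers mark pairs was not tested. A replicate block gave 7 members at 0.75 h after IL2, adding Tnfrsf1b (0.68) and Tnfrsf13b (1.11), and 0 at 0.75 h after FP, 72 h and 168 h. No paired analysis was possible at 16 h because the titles of the groups share no replicate number there and the numbers of the count columns differ from the titles. Depth was lowest at 168 h, with down to 11 reads in the Lta promoter peak of PBS replicate 1.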
